A study of Mus musculus with 19 samples.

Results

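The genes of the enzymes that write, maintain and remove DNA methylation were followed in E13.5 mouse cortex with and without *Ino80*. They were 8 of the 51912 genes counted: the oxidases *Tet1*, *Tet2* and *Tet3*, the methyltransferases *Dnmt1*, *Dnmt3a* and *Dnmt3b*, the maintenance cofactor *Uhrf1* and the glycosylase *Tdg*. *Tet2* was chosen by its measured counts, which fell in both mutants, so its levels against ctrl are given as a description without a test. The other 7 were added as its family and pathway, and all 8 passed the filter on low counts in each of the 3 comparisons.

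RNA of microdissected cortex was sequenced by UMI Click-seq, with 7 embryos of the ctrl group, 5 of cKO-E and 7 of dKO-E and a separate library for each. In cKO-E, *Ino80*, the ATPase of the INO80 chromatin remodeler, was conditionally deleted with Emx1-Cre. In dKO-E, *Trp53*, the gene of p53, was deleted together with *Ino80* by the same driver. All embryos had a mixed C57BL/6 and 129 background, and the labels name the ctrl embryos as control without giving their alleles. Emx1-Cre recombines in cortical progenitors and their progeny, so interneurons, microglia and vessels in the dissected tissue keep both genes.

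Methylation of cytosine at CpG sites is set by DNMT3A and DNMT3B and copied after replication by DNMT1, which UHRF1 brings to hemimethylated DNA. TET enzymes oxidize 5-methylcytosine to 5-hydroxymethylcytosine and further products, which TDG can excise for replacement by base excision repair. In the embryonic brain these enzymes are known for roles in progenitor maintenance and neuronal gene expression. Only their transcripts were measured here, not protein, methylation or hydroxymethylation. In bulk tissue, fewer cells of a type and less RNA per cell cannot be told apart.

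Total counts were 820915 to 8095810 per library, with a median of 2952788. Gene-level counts of *Ino80* were 110 to 133 CPM in ctrl, 146 to 181 in cKO-E and 160 to 200.0 in dKO-E. CPM, counts scaled to library size, rest on TMM factors from the 19 libraries together. The deletion removes part of the gene, and the deposited counts add all its exons, so this level does not check the genotype labels. *Trp53* was at 36.7 to 49.8 CPM in ctrl, 34.0 to 43.9 in cKO-E and 26.9 to 42.5 in dKO-E, with the same limit. Summed apical progenitor, intermediate progenitor and neuron markers were well above microglia, endothelial and erythroid markers in every group, but *Sox2* and *Tubb3*, which define progenitors and neurons, were listed at 0 in every library. Batches 1 and 2 held embryos of every genotype, whereas no litter gave both cKO-E and dKO-E embryos, so litter and genotype cannot be told apart between the mutants.

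In ctrl cortex the maintenance enzymes were the most abundant of the 8 genes per exon length. On the scale of CPM per kb of exon, *Dnmt1* had a level of 28.7 ± 3.47 (SD, n = 7) and *Uhrf1* of 23.9 ± 3.83. *Tet3* followed at 20.6 ± 0.609 and *Tdg* at 17.96 ± 1.62, and the ranges of neighbours among these 4 genes overlapped. The lower end of the order was clear of overlap, with *Dnmt3a* at 14.2 ± 1.127, *Tet2* at 11.6 ± 0.654, *Tet1* at 5.34 ± 0.574 and *Dnmt3b* at 2.76 ± 0.256. *Tet3* was thus the leading TET transcript and *Dnmt3b* the rarest of the set.

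**Figure D1:**
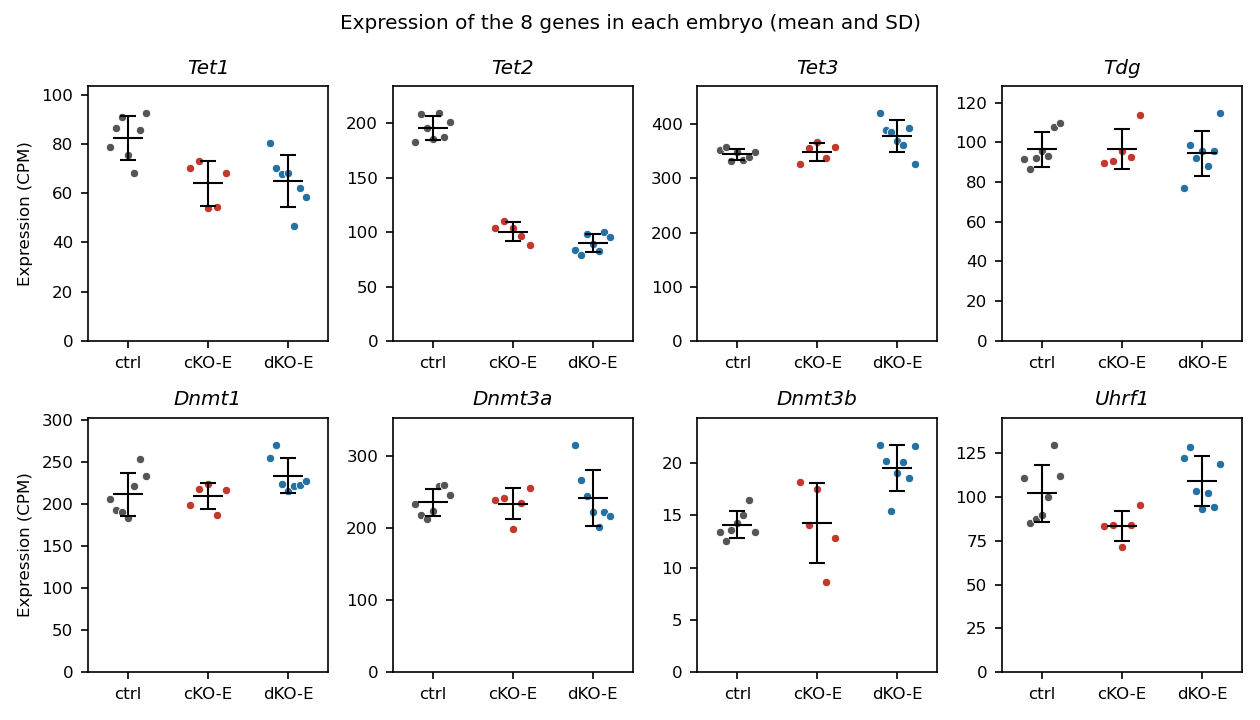
Expression of the 8 genes in CPM on the y axis, with 1 point per embryo for 7 ctrl, 5 cKO-E and 7 dKO-E and lines at the mean and SD. *Tet2* is the panel in which both mutants lie below every ctrl embryo.

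Of the 7 genes other than *Tet2*, 0 were called against ctrl in cKO-E by edgeR's quasi-likelihood test at a false discovery rate of 0.001, the study's threshold, where 3.38% of 11660 genes tested were called in either direction. In dKO-E 0 of 7 were called, beside 2.58% of 11381 genes. The likelihood-ratio test of edgeR and DESeq2 also called 0 in both, and the unadjusted p was under 0.05 for 2 of 7 in cKO-E and 3 of 7 in dKO-E. At a false discovery rate of 0.05, 1 of 7 was called in cKO-E, *Tet1*, which was lower, beside 17.2% of genes called in either direction. At the same rate 2 of 7 were called in dKO-E, *Tet1*, lower, and *Dnmt3b*, higher, beside 15.5%. The comparisons of cKO-E and dKO-E with ctrl share the same 7 ctrl embryos. Between the mutants, the test at 0.05 called 1 of 8 genes, *Uhrf1*, whose level in dKO-E exceeded that in cKO-E, beside 5.59% of 11746 genes called higher. It called 0 lower, beside 9.42%, with *Tet2* at an unadjusted p under 0.05, and DESeq2 and the likelihood-ratio test also called 0 lower. Apart from *Tet2*, 0 of 7 had groups that did not overlap in any comparison, beside 8.77%, 4.45% and 7.09% of genes tested in cKO-E against ctrl, dKO-E against ctrl and dKO-E against cKO-E. The median log2 fold change of all genes tested was 0.02, 0.01 and 0.02 in the 3 comparisons.

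**Figure D2:**
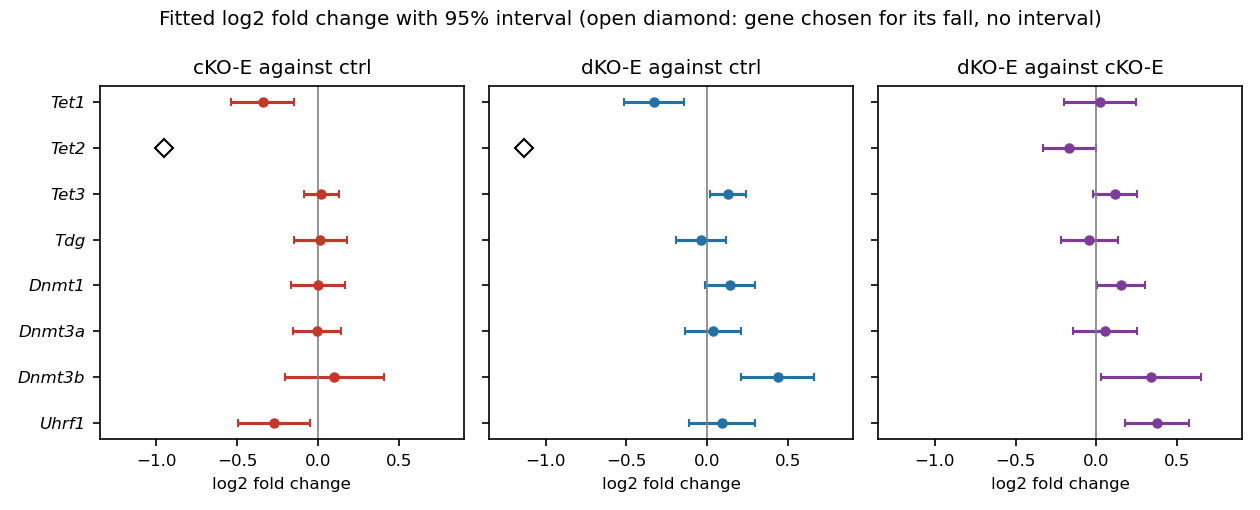
Fitted log2 fold change of each gene on the x axis in 3 comparisons, with bars for the 95% confidence interval. *Tet2* is drawn as an open diamond without an interval in both comparisons that chose it, at -0.96 and -1.132, and *Tet1* lies below 0 in both.

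*Tet2* encodes the TET enzyme that lacks a CXXC DNA-binding domain of its own. Its level in the 7 ctrl embryos was 183 CPM at the lowest, 195 at the median and 209 at the highest, from 320 to 1033 counts. The 5 cKO-E embryos were at 103, 110, 104, 96.4 and 87.8 CPM. The 7 dKO-E embryos ranged from 79.1 to 99.8 CPM around a median of 89.1. Every mutant embryo was below every ctrl embryo, whereas the ranges of both mutants overlapped. The fitted level was 0.516 times that of ctrl in cKO-E and 0.456 times in dKO-E, or log2 fold changes of -0.96 (SE 0.07) and -1.132 (SE 0.06). These are the values for which the gene was picked. The contrast between the mutants compares values that the choice also used, so its test is not independent of the choice. In dKO-E against cKO-E, *Tet2* had a log2 fold change of -0.17 (SE 0.08, 95% confidence interval -0.33 to -0.00), which did not pass edgeR's quasi-likelihood test (adjusted p = 0.175). With sex as a covariate it passed 0.05 (-0.24, edgeR adjusted p = 0.0466), and within batch 2 alone it was above 0 (0.11, edgeR adjusted p = 0.855). All 7 dKO-E embryos were below the cKO-E median, and 3 were below every cKO-E embryo.

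*Tet2* lies on the minus strand of chr3:133463679-133545139 on GRCm38. An antisense gene on the opposite strand, *Gm42567*, overlaps its exons and held 132 counts over all 19 embryos, against 7631 for *Tet2*. In the counting mode used, a read lying wholly within both genes is assigned to neither unless strand separates them, and the strand setting is not given in the sources used here.

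*Tet1*, whose CXXC domain binds CpG-rich DNA, was the rarest TET transcript and also the lower one in both mutants. Its ctrl levels ran from 68.0 to 92.4 CPM with a median of 85.6. The cKO-E embryos were at 70.0, 73.0, 54.0, 54.4 and 68.2 CPM, all below the ctrl median and 2 of them below every ctrl embryo. The dKO-E embryos ran from 46.8 to 80.2 CPM with a median of 67.9, all again below the ctrl median and 4 of 7 below every ctrl embryo. The log2 fold change was -0.34 (SE 0.09) in cKO-E, with an adjusted p of 0.0164 in edgeR's quasi-likelihood test. In dKO-E it was -0.33 (SE 0.09), with an adjusted p of 0.0157. Both missed the threshold of 0.001. The call at 0.05 in dKO-E was lost with litter as a block (log2 fold change -0.21, adjusted p = 0.313) and with total counts in place of TMM factors (-0.24, adjusted p = 0.0601). In cKO-E, leaving out embryo C gave -0.28 with an adjusted p of 0.0592. Between dKO-E and cKO-E the log2 fold change of *Tet1* was 0.02 (95% confidence interval -0.20 to 0.25).

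*Tet3*, the most abundant TET transcript at this stage, had ctrl levels of 331 to 358 CPM around a median of 348. The cKO-E embryos were at 327, 356, 367, 337 and 357 CPM, on both sides of the ctrl range. In dKO-E the range was 326 to 420 CPM with a median of 385, and 6 of 7 embryos were above every ctrl embryo while 1, the lowest, was below all of them. The log2 fold change was 0.02 in cKO-E (95% confidence interval -0.09 to 0.13, adjusted p = 0.851) and 0.13 in dKO-E (95% confidence interval 0.01 to 0.24, adjusted p = 0.121) by edgeR's quasi-likelihood test. Neither passed a threshold. The dKO-E value passed 0.05 with total counts in place of TMM factors (0.22, edgeR adjusted p = 0.00679), with DESeq2 (0.14, adjusted p = 0.0359) and without the 3 libraries of lowest depth (0.18, edgeR adjusted p = 0.0283).

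Added per exon length, the 3 TET transcripts summed to 37.6 ± 1.08 CPM per kb (SD) over the 7 ctrl embryos. The sum was 31.0 ± 1.22 over 5 cKO-E embryos and 32.1 ± 2.23 over 7 dKO-E embryos. The share of *Tet2* in that sum was 30.9% ± 1.45 in ctrl, 19.2% ± 1.40 in cKO-E and 16.6% ± 1.90 in dKO-E. *Tet3* made up 54.9% ± 1.46 of the sum in ctrl, 67.5% ± 2.19 in cKO-E and 70.4% ± 1.84 in dKO-E. The share of *Tet1* differed less between groups, at 14.2% ± 1.34, 13.3% ± 1.73 and 13.0% ± 1.49. These shares rest in part on *Tet2* and carry no test.

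**Figure D3:**
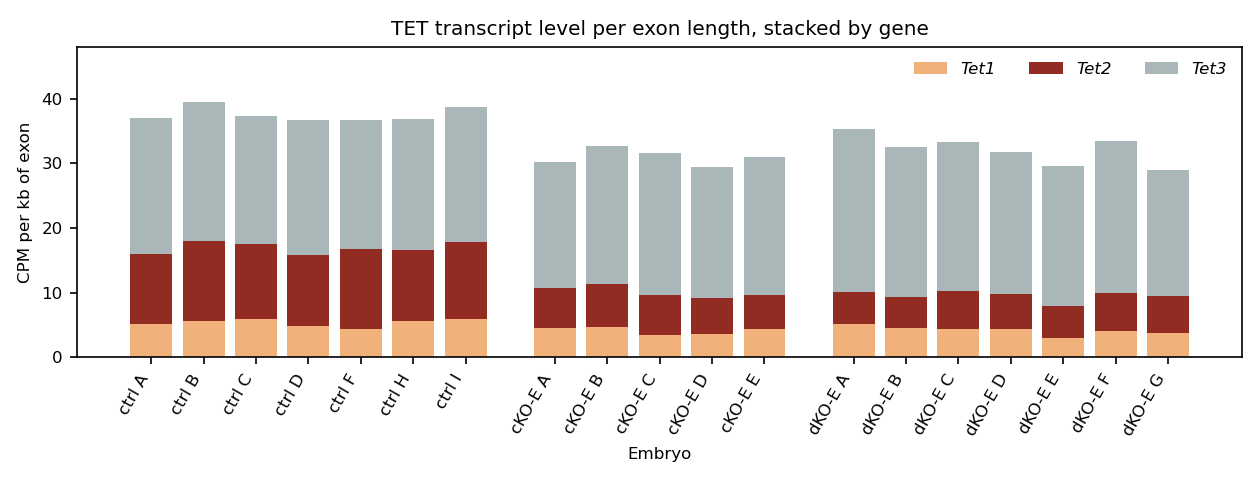
Level of *Tet1*, *Tet2* and *Tet3* in each embryo, stacked, in CPM per kb of exon on the y axis. The summed level is 36.8 to 39.4 in ctrl, 29.4 to 32.6 in cKO-E and 29.0 to 35.3 in dKO-E, and the *Tet2* band is the one that is narrower in every mutant embryo.

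The log2 ratio of *Tet1* to *Tet3* counts, which leaves *Tet2* out, was -2.07 ± 0.16 (SD) over the 7 ctrl embryos. The cKO-E embryos had -2.45 ± 0.23 and the dKO-E embryos -2.55 ± 0.19. The cKO-E ratio was below that of ctrl by a log2 difference of -0.39 (two-sided exact permutation p = 0.00758, adjusted p = 0.017 over 9 ratio tests). In dKO-E the difference was -0.48 (exact permutation p = 0.000583, the smallest that 7 against 7 embryos can give, adjusted p = 0.00524). The permutations of these ratio tests take embryos as independent and ignore litter, and the 7 dKO-E embryos came from 2 litters, of which litter 2, with 4 of them, held no ctrl embryo. Within batch 1 alone the differences were -0.35 and -0.38, with exact permutation p of 0.0571 and 0.0286, each the smallest that those embryos allow.

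The promoter windows of the TET genes are shown because *Tet2* and *Tet1* were low in the mutants and *Tet3* was not. Each runs from 250 bases before to 50 bases after the RefSeq start on GRCm38.p6, 5′ to 3′ along the gene, and capitals mark each CG dinucleotide, the site of methylation. All 3 genes are on the minus strand, and the windows are chr3:133544341-133544640 for *Tet2*, chr10:62887275-62887574 for *Tet1* and chr6:83441629-83441928 for *Tet3*. The windows lie inside the genes as GENCODE annotates them, since GENCODE places each start further upstream.
Tet2 promoter: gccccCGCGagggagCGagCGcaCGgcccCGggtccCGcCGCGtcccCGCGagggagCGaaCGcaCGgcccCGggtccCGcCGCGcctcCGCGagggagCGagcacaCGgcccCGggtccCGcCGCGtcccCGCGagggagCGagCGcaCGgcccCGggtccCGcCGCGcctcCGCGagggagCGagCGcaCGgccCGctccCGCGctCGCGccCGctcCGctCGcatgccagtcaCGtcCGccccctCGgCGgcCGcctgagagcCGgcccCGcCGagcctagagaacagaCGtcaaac
Tet1 promoter: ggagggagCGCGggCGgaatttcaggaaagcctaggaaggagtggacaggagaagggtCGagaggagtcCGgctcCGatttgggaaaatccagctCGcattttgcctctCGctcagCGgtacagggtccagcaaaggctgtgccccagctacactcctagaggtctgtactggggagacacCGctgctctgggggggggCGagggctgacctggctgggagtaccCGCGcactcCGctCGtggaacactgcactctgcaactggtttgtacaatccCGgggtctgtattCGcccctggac
Tet3 promoter: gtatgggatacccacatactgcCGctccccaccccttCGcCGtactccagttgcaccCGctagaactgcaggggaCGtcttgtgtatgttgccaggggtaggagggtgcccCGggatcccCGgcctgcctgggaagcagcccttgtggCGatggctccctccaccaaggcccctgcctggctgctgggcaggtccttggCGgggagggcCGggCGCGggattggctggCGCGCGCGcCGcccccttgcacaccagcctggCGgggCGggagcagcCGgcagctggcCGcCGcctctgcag
The *Tet2* window held 57 CG dinucleotides and a GC content of 81.3%. The *Tet1* window held 17 and the *Tet3* window 22. Over 32851 RefSeq promoter windows of the same length, the median was 7, and 99.85% held fewer than *Tet2*. The *Tet2* window also repeats itself: the 24-base word ccgcgagggagcgagcgcacggcc starts at positions 5, 131 and 173, counted from its 5′ end.

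YY1, a zinc finger protein that the INO80 complex is known to bind, recognizes a core of ATGGC. Both strands were searched for AANATGGC, which 6.05% of the 32851 windows held, and for ATGGCG, which 8.93% held. Letters shared by both motifs were counted under each. None of the TET, DNMT or *Uhrf1* windows held either, and the *Tdg* window held ATGGCG 2 times. The core ATGGC by itself was not counted over the windows, and the *Tet3* window printed above holds it outside both motifs. The absence of these letters from a window says nothing about binding.

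Around *Tet2*, 38 other annotated genes start within 1 Mb, and 8 had enough counts to test against ctrl in cKO-E. One of them, *Ppa2*, the gene of mitochondrial inorganic pyrophosphatase, starts 235 kb away and was lower at a false discovery rate of 0.05, in both mutants. The log2 fold change for cKO-E was -0.52 (edgeR quasi-likelihood adjusted p = 0.00143) and for dKO-E -0.44 (edgeR adjusted p = 0.00265). *Tbck* had 0.18 in cKO-E (edgeR adjusted p = 0.0485) and *Gstcd* 0.28 in dKO-E (edgeR adjusted p = 0.0483), both higher at 0.05. *Cxxc4*, known as the gene of a CXXC protein that interacts with TET2, had values of -0.09 and 0.07 and passed neither test. None of these neighbours passed 0.001 in edgeR's quasi-likelihood test. Of all genes tested, 17.2% were called at 0.05 in cKO-E and 15.5% in dKO-E, in either direction.

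**Figure D4:**
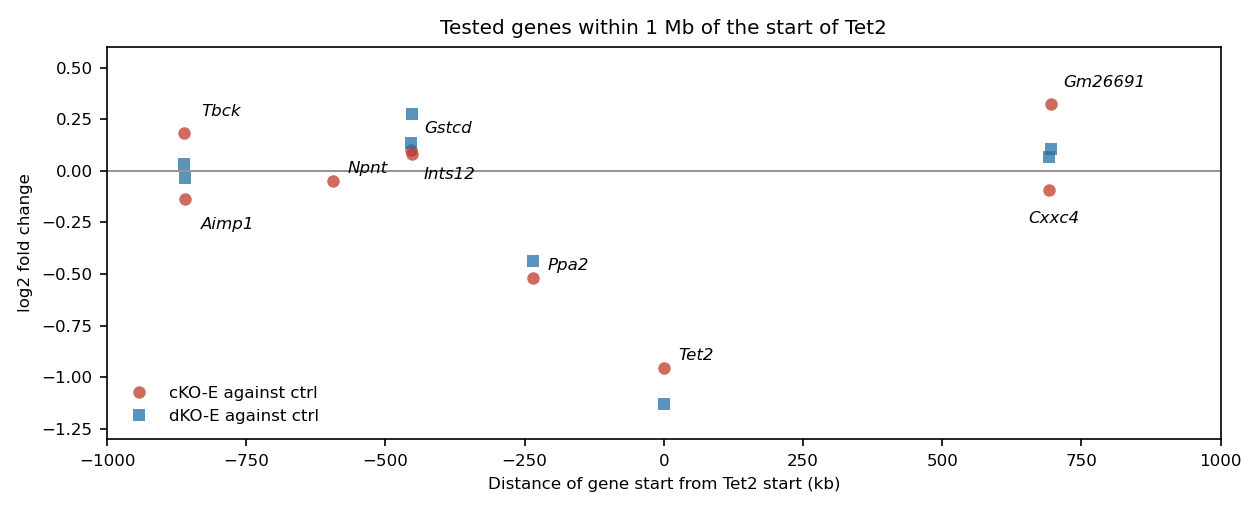
Log2 fold change against ctrl on the y axis for the tested genes that start within 1 Mb of *Tet2*, by distance from its start in kb on the x axis, with circles for cKO-E and squares for dKO-E. *Ppa2*, at -0.52 and -0.44, is the neighbour that lies furthest below 0.

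*Dnmt1* (chr9:20907209-20959888), the maintenance methyltransferase, ran from 183 to 253 CPM in ctrl, around a median of 206. The cKO-E embryos, at 199, 218, 224, 187 and 217 CPM, were all inside the ctrl range. The dKO-E embryos ran from 215 to 270 CPM around a median of 224, all above the ctrl median and 2 above every ctrl embryo. The log2 fold change was -0.00 in cKO-E (95% confidence interval -0.17 to 0.17) and 0.14 in dKO-E (95% confidence interval -0.01 to 0.30, edgeR quasi-likelihood adjusted p = 0.216). Neither passed a threshold, nor did dKO-E against cKO-E at 0.15 (edgeR adjusted p = 0.165). The dKO-E difference from ctrl was 0.30 within batch 1 alone, past 0.05 (edgeR adjusted p = 0.0263), and -0.08 within batch 2 alone. It was 0.31 with litter as a block (edgeR adjusted p = 0.0775). With total counts in place of TMM factors, *Dnmt1* in dKO-E passed 0.05 against ctrl (0.23, edgeR adjusted p = 0.0484) and against cKO-E (0.21, edgeR adjusted p = 0.0467).

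*Dnmt3a* (chr12:3806007-3914443), the main de novo methyltransferase of neurons, ran from 213 to 259 CPM in ctrl, 198 to 255 in cKO-E and 202 to 315 in dKO-E. The 3 ranges overlapped widely, and dKO-E embryo A was the highest of all at 315 CPM. Log2 fold changes were -0.01 in cKO-E (95% confidence interval -0.16 to 0.14) and 0.03 in dKO-E (95% confidence interval -0.14 to 0.21). The dKO-E value was 0.22 within batch 1 alone, -0.21 within batch 2 alone and 0.27 with litter as a block, none past 0.05. Between the mutants it was 0.05 (edgeR adjusted p = 0.790), or 0.22 with sex as a covariate, which passed 0.05 (edgeR adjusted p = 0.0302).

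*Dnmt3b* (chr2:153649450-153687730), the de novo methyltransferase of the early embryo, was the rarest transcript, with 7 to 125 counts per library. Its ctrl embryos ran from 12.5 to 16.5 CPM around a median of 13.6. The cKO-E embryos were at 18.2, 14.1, 17.5, 8.65 and 12.8 CPM, the lowest from 7 counts. The dKO-E embryos ran from 15.3 to 21.7 CPM around a median of 20.1, and 6 of 7 were above every ctrl embryo. The log2 fold change in dKO-E was 0.43 (SE 0.11), with an adjusted p of 0.0104 in edgeR's quasi-likelihood test, so that it passed 0.05 but not 0.001. With litter as a block it was 0.50 with an adjusted p of 0.118, and within batch 1 alone 0.46 with an adjusted p of 0.0511. In cKO-E it was 0.10 (95% confidence interval -0.21 to 0.41). Between the mutants it was 0.34 (SE 0.15, edgeR adjusted p = 0.141), which did not pass.

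In ctrl the log2 ratio of *Dnmt3a* to *Dnmt3b* counts was 4.05 ± 0.09 (SD, n = 7). The mutants had ratios of 4.05 ± 0.47 (cKO-E, n = 5) and 3.61 ± 0.26 (dKO-E, n = 7). The dKO-E ratio was below that of ctrl, by a log2 difference of -0.44 (two-sided exact permutation p = 0.00233, adjusted p = 0.0105 over 9 tests). Within batch 1 alone that difference was -0.26 (exact permutation p = 0.0857). Against cKO-E the difference of dKO-E was also -0.44 (exact permutation p = 0.0707, adjusted p = 0.106), which did not pass, and within batch 1 alone it was 0.014.

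*Uhrf1* (chr17:56303321-56323486) was called at 0.05 between the mutants and not against ctrl, and its levels in the mutants overlapped. Its ctrl levels ran from 85.0 to 130 CPM with a median of 100.04. The cKO-E embryos were at 83.5, 83.7, 71.2, 84.0 and 95.3 CPM, all below the ctrl median and 4 of 5 below every ctrl embryo. The dKO-E embryos ran from 93.1 to 128 CPM around a median of 103, all inside the ctrl range and 5 of 7 above every cKO-E embryo. The log2 fold change was 0.37 (SE 0.10) in dKO-E against cKO-E, or 1.30 times the level, with an adjusted p of 0.0116 in edgeR's quasi-likelihood test. Against ctrl it was -0.27 in cKO-E (SE 0.11, edgeR adjusted p = 0.0866) and 0.09 in dKO-E (SE 0.10, edgeR adjusted p = 0.591), and neither passed. The cKO-E value passed 0.05 with sex (-0.32, edgeR adjusted p = 0.0300) or batch (-0.26, edgeR adjusted p = 0.0337) as a covariate. The difference between mutants was 0.48 within batch 1 alone (edgeR adjusted p = 0.0265) and 0.16 within batch 2 alone (edgeR adjusted p = 0.769). Without cKO-E embryo C, the lowest, it was 0.32 (edgeR adjusted p = 0.0508) and the call at 0.05 was lost. Sex was unevenly spread, with 4 of 5 cKO-E and 2 of 7 dKO-E embryos female, and with sex as a covariate the difference was 0.52 (edgeR adjusted p = 7.51e-05).

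The log2 ratio of *Uhrf1* to *Dnmt1* counts was -1.06 ± 0.10 (SD) over the 7 ctrl embryos. It was -1.32 ± 0.20 over 5 cKO-E embryos and -1.10 ± 0.10 over 7 dKO-E embryos. It was lower in cKO-E than in ctrl, with a log2 difference of -0.27 (two-sided exact permutation p = 0.00758, adjusted p = 0.017). The dKO-E ratio was above the cKO-E ratio by 0.22 (exact permutation p = 0.0253, adjusted p = 0.0455). Leaving out 1 embryo at a time moved it between 0.13, without cKO-E embryo C, and 0.26, and it missed 0.05 in 8 of 12 cases. Within batch 1 alone these differences were -0.37 and 0.31, each with an exact permutation p of 0.0571, the smallest that 3 against 4 embryos allow.

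The paralog *Uhrf2*, which also recognizes hemimethylated DNA, was more abundant than *Uhrf1* in CPM, with means of 292 in ctrl and 240.02 in cKO-E. Its log2 fold change in cKO-E was -0.28 (SE 0.06, edgeR adjusted p = 0.00565), lower at 0.05, and -0.14 in dKO-E. The tRNA methyltransferase *Trdmt1*, a relative of the DNMT genes, was higher in cKO-E at 0.05 with 0.57 (SE 0.15, edgeR adjusted p = 0.0119). Over all 19 embryos the germline paralogs *Dnmt3l* and *Dnmt3c* had 1 and 2 counts, and the pseudogene *Tdg-ps* had 23.

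*Tdg* (chr10:82629828-82650799), whose product excises oxidized methylcytosine, had nearly equal means of 96.5, 96.4 and 94.4 CPM in ctrl, cKO-E and dKO-E. It ran from 86.4 to 110 CPM in ctrl and from 76.9 to 115 in dKO-E. The cKO-E embryos were at 89.5, 90.4, 95.6, 92.7 and 114 CPM, of which embryo E, the last, stood apart. The highest ctrl values, 108 and 110 CPM, came from embryos H and I, which share litter 7 with it, and the part of litter was not tested. Log2 fold changes were 0.01 in cKO-E (95% confidence interval -0.15 to 0.18), -0.04 in dKO-E (95% confidence interval -0.20 to 0.11) and -0.04 between the mutants (95% confidence interval -0.22 to 0.13).

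Genes whose pattern over the 19 embryos was among the most like *Tet2*, of 12048 ranked by Pearson r of log2 CPM, were *Ncor1* (r = 0.964), *Rims2* (0.956), *Zfp292* (0.951) and *Zdhhc17* (0.950). After the group means were removed, r with *Tet2* was 0.09 to 0.23 for these 4 genes. Since *Tet2* was chosen by its difference between genotypes, genes ranked by r with it over all embryos share that difference by construction. The genes most like *Uhrf1* were *Timeless* (r = 0.911), *Incenp* (0.902), *Prdx6* (0.900), *Ptpru* (0.898) and *Dtl* (0.897), and r was 0.836 to 0.908 with group means removed. *Timeless* and *Dtl* act at the replication fork and in S phase, and *Incenp* in mitosis. Among the 8 genes, *Uhrf1* had r = 0.714 with *Dnmt1* and 0.586 with *Dnmt3a*. These correlations are descriptions over embryos, and the genes compared share each embryo's library, depth and genotype.

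Replication is the time at which UHRF1 and DNMT1 act, and 29 of 30 listed replication and S phase genes were tested. In cKO-E, 7 were lower and 0 higher at a false discovery rate of 0.05, 28 of 29 fold changes were below 0, and the median log2 fold change was -0.19, beside 0.02 for all genes tested. The smallest p values were those of *Pola1* (-0.64) and *Mcm2* (-0.79), which also passed 0.001, and of *Ticrr* (-0.63). In dKO-E the median was 0.02, with 2 lower, *Pola1* (-0.55) and *Mcm2* (-0.71), and 3 higher at 0.05, *Prim2* (0.23), *Cdc45* (0.40) and *Mcm5* (0.38). Between the mutants, 9 of 29 were higher in dKO-E and 0 lower, with a median of 0.22. Of all genes tested, 17.2% were called at 0.05 in cKO-E and 15.5% in dKO-E against ctrl, in either direction. Between the mutants 5.59% were called higher and 9.42% lower. Summed levels of the list were 1808 to 2637 CPM in ctrl, 1570 to 2021 in cKO-E and 1996 to 2403 in dKO-E. These ranges overlapped, and the list's part in the difference of *Uhrf1* between the mutants was not tested.

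The list of maintenance and targeting factors, with chromatin proteins that recruit or guide DNMTs, had 17 of 20 genes tested. At 0.05, 3 were lower in cKO-E and 0 higher: *Nsd1* (log2 fold change -0.26), a histone H3K36 methyltransferase, *Uhrf2* (-0.28), and *Hells* (-0.27), a remodeler needed for methylation of repeats. In dKO-E 1 was lower, *Nsd1* (-0.22), and 1 higher, *Ctcf* (0.16). At 0.001 edgeR's quasi-likelihood and likelihood-ratio tests called 0 in either, and DESeq2 called 2 lower in cKO-E and 1 lower in dKO-E. Between the mutants 2 were higher in dKO-E, *Cdca7* (0.46), the partner of HELLS, and *Trim28* (0.18), the corepressor of KRAB zinc finger proteins. The list's medians were -0.03, 0.06 and 0.11, beside 0.02, 0.01 and 0.02 for all genes. The calls at 0.05 stand beside 17.2% of all genes in cKO-E and 15.5% in dKO-E, in either direction. Between the mutants 5.59% of all genes were called higher.

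Of 10 methyl-CpG readers, 1 was higher in cKO-E at 0.05, *Mbd1* (0.32). In dKO-E 0 were called by edgeR's quasi-likelihood test at 0.05, 1 had an unadjusted p under 0.05, and the likelihood-ratio test and DESeq2 called 0 at 0.001. Between the mutants, *Zbtb38* (-0.45) and *Zbtb4* (-0.50), zinc finger readers, were lower in dKO-E, and *Mbd3* (0.28) and *Mbd6* (0.60) were higher. The latter pair carry an MBD fold but are known to bind methylated CpG poorly or not at all. The list's medians were 0.04, 0.00 and -0.01. Shares of all genes called at 0.05 were 17.2% in cKO-E and 15.5% in dKO-E, in either direction. Between the mutants they were 9.42% lower and 5.59% higher.

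Among 13 tested TET partners and genes that supply 2-oxoglutarate, 5 were lower in cKO-E at 0.05 and 0 higher. The smallest p values belonged to *Idh2* (-0.39), mitochondrial isocitrate dehydrogenase, *Ogt* (-0.16), the O-GlcNAc transferase that TET proteins bind, and *Sall4* (-0.87), from means of 4.14 and 7.91 CPM. In dKO-E 2 were lower, *Cxxc5* (-0.51), a CXXC protein, and *Idh1* (-0.25), the cytosolic counterpart of *Idh2*. Between the mutants *Sin3a* (0.26), a corepressor scaffold, was higher in dKO-E. Against ctrl at 0.001, edgeR's quasi-likelihood test called 0, whereas its likelihood-ratio test and DESeq2 each called 1 lower in cKO-E and 1 lower in dKO-E. The medians were -0.10, -0.10 and 0.14. Beside these calls at 0.05, 17.2% of all genes were called in cKO-E and 15.5% in dKO-E, in either direction. Between the mutants 5.59% were called higher.

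Downstream of the TET enzymes, 13 of 18 demethylation repair genes were tested. *Neil3*, a glycosylase of proliferating cells, was lower in cKO-E past 0.001, at -0.63 on the log2 scale (SE 0.08, edgeR adjusted p = 2.83e-05) from means of 118 to 75.3 CPM. In dKO-E it was -0.34 (edgeR adjusted p = 0.00125), and dKO-E was 0.29 above cKO-E (edgeR adjusted p = 0.00468). *Apobec1* was lower at 0.05 in both, by -0.94 and -0.95, from under 10 CPM. *Xrcc1*, the scaffold of single-strand break repair, was higher in dKO-E than in ctrl (0.38) and than in cKO-E (0.39) at 0.05. The list's medians were -0.08, 0.08 and 0.18. At 0.05, 17.2% of all genes were called in cKO-E and 15.5% in dKO-E, in either direction. Between the mutants 5.59% were called higher.

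Of 13 methyl donor synthesis genes, 0 were called in cKO-E by edgeR at 0.05, 2 had an unadjusted p under 0.05, and the likelihood-ratio test and DESeq2 called 0 at 0.001. *Shmt2*, which makes mitochondrial one-carbon units from serine, was higher in dKO-E than in ctrl (0.40) and than in cKO-E (0.65) at 0.05. The medians were -0.00, 0.11 and 0.11. Called at 0.05 among all genes were 17.2% in cKO-E and 15.5% in dKO-E, in either direction. Between the mutants 5.59% were called higher.

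**Figure D5:**
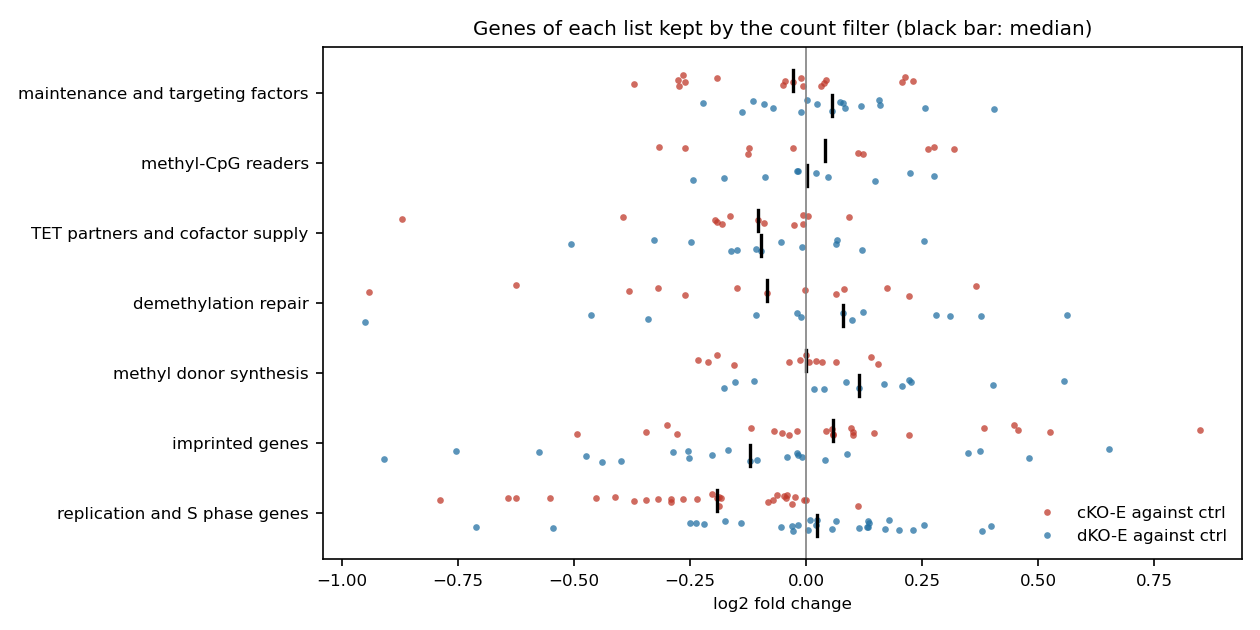
Log2 fold change against ctrl on the x axis for each tested gene of 7 lists, with red points for cKO-E, blue points for dKO-E and a black bar at the list's median. Replication and S phase genes have a median of -0.19 in cKO-E and 0.02 in dKO-E, and the imprinted genes lie on both sides of 0.

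Imprinted genes and germline genes are the classes most known for silencing by DNA methylation. Of 26 imprinted genes, 23 were tested, and their changes went both ways. In cKO-E 3 were lower at 0.05, *Grb10* (-0.49), *Plagl1* (-0.35) and *Kcnq1ot1* (-0.28), and 4 were higher, led by *Mest* (0.85), *Sgce* (0.45) and *Peg10* (0.46). *Grb10*, *Mest* and *Sgce* also passed 0.001. In dKO-E 8 were lower and 2 higher at 0.05, of which *Rian* (-0.76) and *Kcnq1ot1* (-0.44), both long noncoding RNAs, passed 0.001 and were lower. *Peg10* (0.48) and *Sgce* (0.35), neighbours in 1 imprinted cluster, were the higher pair. Between the mutants 8 were lower in dKO-E, led by *Mest* (-0.95), *Rian* (-0.71) and *Meg3* (-0.61), and *Grb10* (0.46) was higher. The medians were 0.06, -0.12 and -0.13. Over all genes tested, 17.2% were called at 0.05 in cKO-E and 15.5% in dKO-E, in either direction. Between the mutants 9.42% were called lower and 5.59% higher. Allelic expression was not measured.

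Germline genes that methylation keeps silent in somatic cells stayed near the floor in every genotype. With the counts of each group added, the 20 listed genes held 14.3 CPM in ctrl, 15.9 in cKO-E and 15.5 in dKO-E, and 7, 6 and 3 of them had no count in any embryo of the group. Only 2 had enough counts to test against ctrl. Their log2 fold changes were 0.32 and 0.70 in cKO-E and 0.21 and 0.23 in dKO-E, beside medians of 0.02 and 0.01 for all genes. Neither was called by edgeR at 0.05, with 1 at an unadjusted p under 0.05 in cKO-E and 0 in dKO-E, and the likelihood-ratio test and DESeq2 called 0 at 0.001.

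Markers of other cells moved with genotype and stand beside the results above. Over 12 microglia markers, the summed level was 6.45 to 17.4 CPM in ctrl, 32.1 to 43.8 in cKO-E and 5.85 to 11.3 in dKO-E. Of 3 tested, *Csf1r* (log2 fold change 2.14) and *Mpeg1* (2.499) passed 0.001 in cKO-E, beside 3.38% of all genes called in either direction. *Trem2* had no count in ctrl. *P2ry12* was not higher in cKO-E, with 17 of 13172008 counts against 36 of 21568765 in ctrl. Over 10 ventral forebrain and interneuron markers, the cells of which Emx1-Cre spares, the sum was 22.4 to 99.8 CPM in ctrl, 78.4 to 126 in cKO-E and 45.0 to 86.8 in dKO-E. Between the mutants *Dlx1*, *Gad2* and *Gad1* had lower levels in dKO-E at 0.05, and *Gsx2* had no count in ctrl or cKO-E. Over 11 postmitotic neuron markers, the sum was 3472 to 5235 CPM in ctrl, 4220 to 5124 in cKO-E and 3043 to 4162 in dKO-E, with *Tubb3* at 0. Over 10 apical progenitor markers it was 1418 to 1630 CPM in ctrl, 1163 to 1508 in cKO-E and 1299 to 1516 in dKO-E, with *Sox2* at 0. The 7 intermediate progenitor markers summed to 990.2 to 1130 CPM in ctrl, 908 to 1003 in cKO-E and 814 to 1095 in dKO-E. Endothelial and erythroid sums overlapped between all groups. Fold changes were below 0 for 7 of 9 tested apical progenitor markers in each mutant. At 0.001 in cKO-E, 1 of these markers was lower, *Prom1* (-0.64), and 1 higher, *Fabp7* (0.56), and in dKO-E 0 were called. Of 7 intermediate progenitor markers, 7 were below 0 in cKO-E and 6 in dKO-E. Of 10 tested neuron markers, 4 were below 0 in cKO-E and 10 in dKO-E. Over all genes tested, 46.6% were below 0 in cKO-E and 48.6% in dKO-E. The part of cell composition in the members' levels was not tested.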

How the data were processed

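RNA-seq counts of 19 embryos were analysed, 1 library each. Per the labels and the study's methods, Click-seq libraries were made from ribosome-depleted RNA, and the authors trimmed reads (cutadapt 1.13), aligned them to mm10 (STAR 2.5.2a), deduplicated them by UMI (UMI-tools 0.5.3) and counted them per gene (HTSeq 0.6.1p1, intersection-nonempty). The values the authors deposited are these counts, whole numbers without normalization for 51912 genes. Rows that name no gene held 23.3% to 31.9% of reads per library and were left out. The strand setting is not given in the sources used here.

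Symbols and exon lengths came from the GENCODE annotation on GRCm38, in which 51719 identifiers were found without their version, and promoters from RefSeq on GRCm38.p6. With R 4.3.3 and edgeR 4.0.16, each comparison had a fit of its own with filterByExpr (minimum count 10), TMM factors and the quasi-likelihood test, adjusted by Benjamini-Hochberg over all genes tested. Fold changes against ctrl were called at a false discovery rate of 0.001 and between mutants at 0.05. Log2 ratios of counts, with 0.5 added, were compared by two-sided exact permutation tests in scipy 1.17.1, adjusted over 9. Alternatives used DESeq2 1.42.0 and the settings listed in the closing section. The scripts were tested on simulated data.

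The 8 genes and all lists were chosen with earlier results of these data known. Named were the 8 genes, *Ino80* and *Trp53*, called genes of the lists (up to 3 per direction by smallest p), the 5 genes most like *Tet2* (1 is not reported here) and *Uhrf1*, tested neighbours of *Tet2*, and overlapping genes, paralogs and pseudogenes with counts. *Trem2*, *Gsx2*, *Sox2* and *Tubb3*, list genes at 0, and *P2ry12* were named after their values were seen. The letters in the labels did not pair embryos: same-letter correlations of deviations from group means ran from -0.36 to 0.15. Litter is labelled and was used as a block. Embryos of 1 litter are not independent, and p values measure the spread between embryos.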

Additional observations from a re-analysis of the deposited data

Results flagged for a closer look

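*Tdg* in cKO-E embryo E stood apart from the other 4 cKO-E embryos, at 113.8 CPM against 89.5 to 95.6 CPM. It drew attention because its gap to the nearest embryo was large for the spread of the group. Embryos H and I of ctrl, from the same litter 7, had the highest ctrl values at 108 and 110 CPM. In all, 24 sets of gene and genotype were screened, of which chance marks about 1 in 20.

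*Uhrf1* differed between the mutants. Its log2 fold change in dKO-E against cKO-E was 0.37 (edgeR quasi-likelihood adjusted p = 0.0116), with all 7 dKO-E embryos above the cKO-E median. The replication list's median between the mutants was 0.22, and its part in the difference was not tested.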

How the results depend on the processing

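Over the alternatives run, *Tet2* had a log2 fold change between -1.13 and -0.88 in cKO-E and between -1.18 and -1.02 in dKO-E. *Tet2* was chosen by its fall in these same embryos, so these ranges are a description and no support for it. *Tet1* stayed below 0 in all alternatives in both mutants, and *Dnmt3b* stayed above 0 in dKO-E. At a false discovery rate of 0.05 in place of 0.001, genes other than *Tet2* called lower numbered 1 in cKO-E and 1 in dKO-E, and called higher 1 in dKO-E. Between the mutants the count of genes higher in dKO-E, 1 as reported, was 0 at a false discovery rate of 0.01 and 0 in batch 2 alone. It was 2 with total counts and 2 with sex as a covariate. Leaving out 1 embryo at a time gave 0 to 1, with 0 without cKO-E embryo C.

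In batch 1 alone, where few embryos remain, the ratio differences lost significance. *Dnmt3a* to *Dnmt3b* was -0.26 (exact permutation, adjusted p = 0.154) in dKO-E against ctrl and 0.014 against cKO-E. *Tet1* to *Tet3* had -0.35 for cKO-E and -0.38 for dKO-E, and *Uhrf1* to *Dnmt1* -0.37 in cKO-E and 0.31 between the mutants (exact permutation, adjusted p = 0.129 for each). Leaving out 1 embryo at a time, *Uhrf1* to *Dnmt1* between the mutants was 0.13 to 0.26 and missed 0.05 in 8 of 12 cases.

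With the label letter as a replicate block, edgeR gave *Tet1* -0.39 in cKO-E (adjusted p = 0.0193). In dKO-E, *Tet1* had -0.22 (edgeR adjusted p = 0.127) and *Dnmt3b* 0.45 (edgeR adjusted p = 0.0668). Under the block both dKO-E calls at 0.05 were lost. Calls against ctrl at 0.001 stayed at 0 among the 7 genes other than *Tet2*. Between the mutants no call at 0.05 changed among the 8 genes. A litter block was not possible between the mutants, which share no litter. Counts over the lists moved more: across alternatives, replication genes lower in cKO-E numbered 0 to 7 (2 at 0.001) and imprinted genes lower in dKO-E 0 to 8 (2 at 0.001), and all genes called 30 to 2004 in cKO-E (394 as reported) and 14 to 1759 in dKO-E (294). Without the 3 libraries under 1500000 counts, an alternative chosen after seeing the data, *Tet1* was -0.25 in dKO-E (edgeR adjusted p = 0.0512) and *Uhrf1* 0.37 between the mutants (adjusted p = 0.0498). The cause of these changes was not tested. Depth limits *Dnmt3b* most, with 7 counts in 1 library.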
